A study of Mus musculus with 4 samples.

Results

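Mature neutrophils of mouse trabecular bone numbered 858. They are taken here as the neutrophil barcodes with at least 3 captured mRNA molecules of the cytokine gene Il1b plus the chemokine receptor gene Cxcr2. Limits on precursor and B-cell genes, given below, also had to be met. They were 27.0% (25.5% to 28.6%) of the 3172 neutrophil barcodes, 7.16% (6.71% to 7.64%) of the 11980 barcodes that passed the filters, and came from 15014 barcodes in all. The cells came from tibiae, proximal and distal ends, of mice 8 weeks of age, and were freed with dispase, collagenase and trypsin and measured by droplet single-cell RNA sequencing, in which each unique molecular identifier (UMI) stands for 1 captured mRNA molecule. The genotype was Col10a1Cre;Rosa26-Tdtomato;Irx3 +/Δ;Irx5 +/-, labelled as the heterozygous control for Irx3/5, without PTH, and no other genotype was compared. This Cre is driven by a gene of hypertrophic cartilage cells and not of neutrophils, and the labels do not say in which cells the Irx3 Δ allele is deleted. The 4 records hold 1 genotype and 1 age and share 1 matrix in which no barcode can be tied to a record, so the labels leave it unknown whether the records are animals or repeat runs. There was therefore 1 sample, no difference below has a replicate check, and no test was made. Intervals in brackets are exact 95% intervals for counting error only.

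Members were chosen by their own UMIs. A barcode was kept if it held 1000 UMIs or more from 200 genes or more, with mitochondrial genes giving no more than 15%, and S100a8 plus S100a9, which encode the calprotectin subunits that fill the neutrophil cytosol, had to make up at least 5% of its UMIs. It then needed at least 3 UMIs of Il1b plus Cxcr2, at most 4 of Fcnb plus Cebpe, which mark neutrophil precursors, and at most 3 of the B-cell genes Cd79a plus Cd79b. Levels of these genes are therefore descriptions of the choice. Of the 2314 other neutrophils, 942 had over 4 Fcnb plus Cebpe UMIs and are called early here. Another 1187 differed from the members in holding under 3 Il1b plus Cxcr2 UMIs, and are called intermediate and used as the nearest comparison. The other 185 had at most 4 Fcnb plus Cebpe UMIs and over 3 Cd79 UMIs, whatever their Il1b plus Cxcr2 count. All 8808 barcodes under the 5% limit, of which 5090 were of the B lineage, served as the wider comparison.

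Neutrophils are made in bone marrow through an ordered sequence in which azurophil, specific and gelatinase granule proteins are produced one class after another, and most of that production stops before the cell leaves the marrow. Retention in marrow is promoted by the receptor CXCR4 and its ligand CXCL12, and release by CXCR2 and its chemokines, while G-CSF acting on its receptor CSF3R drives both production and release. Interleukin-1β is made as an inactive precursor, often after NF-κB signals, and is cut to its active form by inflammasome-activated caspase-1.

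Depth differed between the groups compared. The members had a median of 2693 UMIs (1000 to 22728) and 992 genes per barcode, against 4767 UMIs (1004 to 39848) and 1336 genes in intermediate, 14562.5 UMIs (1595 to 48536) and 2966 genes in early neutrophils. Levels are therefore UMIs summed over a group and scaled to a total of 1000000 (CPM), shares of barcodes are also given after each barcode was thinned to 1000 UMIs, and the main comparison was repeated on 634 members and 634 intermediate neutrophils drawn from the same depth bins (medians 3194 and 3239 UMIs), called depth-matched below. Mitochondrial UMIs made up a median of 1.5% in the members and 1.60% in intermediate neutrophils, and ribosomal protein genes 2.84% and 3.23%, against 7.93% in early neutrophils and 15.5% in all other barcodes. A doublet caller marked 29 members and 46 intermediate neutrophils, and they were kept.

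The genes that define the members were spread unevenly over them. Il1b had a median of 3.5 UMIs per member (0 to 60) and Cxcr2 a median of 2 (0 to 13). Summed over the members Il1b was at 1467 CPM (1423 to 1512) and Cxcr2 at 682 (652 to 713), against 34.4 and 95 in intermediate and 18.4 and 20.6 in early neutrophils, differences that follow from the choice. Both transcripts were found in 569 members, or 66.3% (63.0% to 69.5%), Il1b alone in 140, or 16.3%, and Cxcr2 alone in 149, or 17.4%. The 86 members richest in Il1b, each with at least 11 UMIs, held 35.0% of all 4282 Il1b UMIs, while the 86 richest in Cxcr2 held 25.7% of 1991. Fcnb plus Cebpe was at 0 in 785 members, and the limit on these genes left out 40 barcodes, of which 8 had exactly 5 such UMIs.

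**Figure D1:**
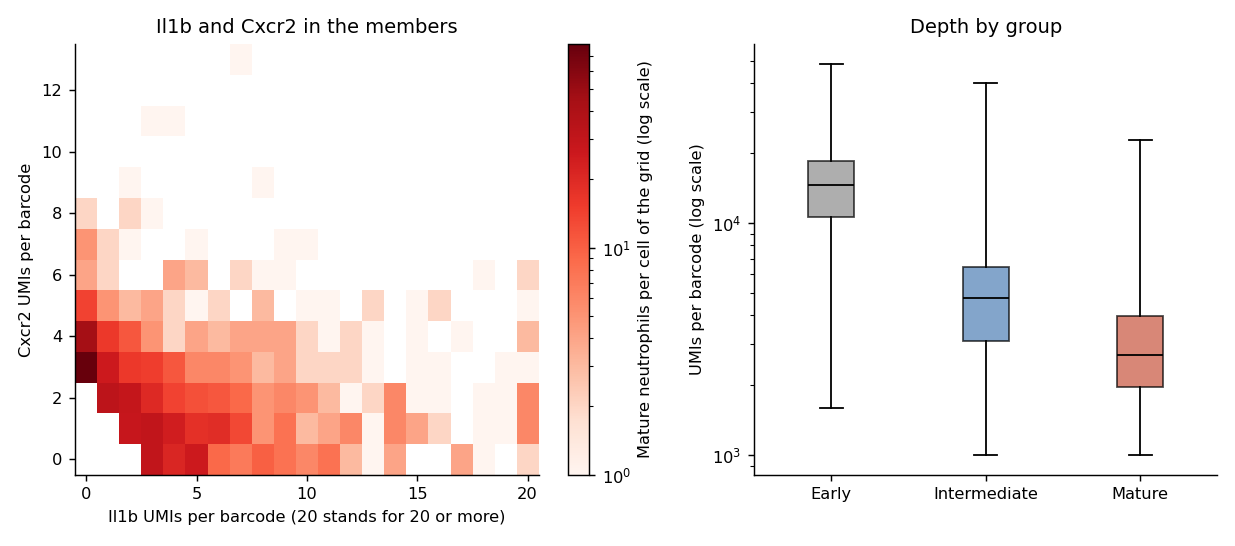
Left, number of the 858 members (colour, log scale) at each count of Il1b UMIs (horizontal axis) and Cxcr2 UMIs (vertical axis); the empty corner is the limit of 3 UMIs. Right, UMIs per barcode (log scale) in early, intermediate and mature neutrophils, with boxes from the first to the last quartile, the median as a line and whiskers from lowest to highest; the median falls from 14562.5 over 4767 to 2693.

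Along the number of Il1b plus Cxcr2 UMIs, Clec4d was higher and Ltf lower from just outside the limit of 3 to just inside and on to the highest counts. Clec4d was at 487 CPM in the 224 neutrophils just outside, with 2 Il1b plus Cxcr2 UMIs, at 743 CPM in the 169 members just inside, with 3, and at 1163 CPM in the 346 members with 7 or more. Ltf, which encodes the specific granule protein lactoferrin, was at 10114 CPM just outside, 6928 just inside and 1611 in the members with 7 or more. In the 613 neutrophils with none of these UMIs Clec4d was at 108 and Ltf at 14861 CPM. Cxcl2 and Stfa2l1 did not follow a steady order: at 2, 3, 4, 5, 6 and at least 7 such UMIs Cxcl2 was at 158, 214, 117, 270.3, 345 and 951 CPM, and Stfa2l1 at 107, 314, 249, 155, 509.7 and 302. The median depth also differed along this series, from 5347 UMIs at 0 to 3691 at 2, 2998 at 3 and 2470 at 7 or more, and its part in the series was not tested.

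Of the marker genes for mature neutrophils that the choice did not use, Csf3r and Clec4d were found in most members and Stfa2l1 in a minority. Csf3r, which encodes the G-CSF receptor, had at least 1 UMI in 83.7% of the members (81.04% to 86.1%) and 53.5% of intermediate neutrophils, and after thinning in 54.5% and 23%. In B-lineage barcodes, which should lack it, the share was 5.19% at a median of 3107 UMIs and 1.69% after thinning. Clec4d, a C-type lectin receptor for mycobacterial and fungal glycolipids, had a UMI in 85.5% of the members and 43.4% of intermediate neutrophils, and after thinning in 63.3%, 23.1%, and 1.12% of B-lineage barcodes. Summed levels were 804 CPM (772 to 837) for Csf3r and 948 (913 to 984) for Clec4d in the members against 202 and 217 in intermediate neutrophils. At matched depth they were 684 against 342 and 813 against 399.8 CPM. Stfa2l1, a gene of the stefin family of cysteine protease inhibitors, had a UMI in 20.9% of the members, and the 86 richest members held 81.7% of its 848 UMIs. After thinning the shares were 15.5% in the members, 4.38% in intermediate neutrophils and 0.275% in the B lineage. Its UMIs were thus detected in a subset of the members, which at this depth does not show that the others lack it. Its summed level was 291 CPM in the members against 50.3 in intermediate and 3.71 in early neutrophils.

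The promoters of the genes on which the comparison turns differed in the motifs they held. The sequences begin 250 bases before the gene's start in RefSeq on GRCm38.p6, the assembly that mm10 names. They end before the first transcribed base annotated in that release or in GENCODE. Shown are Il1b and Cxcr2, which define the members, and the specific granule gene Ltf, lower in the members. Cxcl2 and Ptgs2 are added as the highest by ratio against all other neutrophils, without depth matching, among other genes with at least 100 CPM on the higher side. Capitals mark the motifs searched: GGGANTTTC on both strands for NF-κB, TTGNGNAA on both strands for C/EBP factors, and TATAAA on the gene's strand for a TATA box. The motifs were chosen with these promoters in view.
Il1b (chr2:129371140-129371389, minus strand): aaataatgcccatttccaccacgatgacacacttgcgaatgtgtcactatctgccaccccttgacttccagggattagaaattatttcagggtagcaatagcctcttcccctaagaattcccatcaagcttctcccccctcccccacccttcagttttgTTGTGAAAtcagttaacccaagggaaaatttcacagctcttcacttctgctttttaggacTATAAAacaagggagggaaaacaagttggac
Cxcl2 (chr5:90903649-90903870, plus strand): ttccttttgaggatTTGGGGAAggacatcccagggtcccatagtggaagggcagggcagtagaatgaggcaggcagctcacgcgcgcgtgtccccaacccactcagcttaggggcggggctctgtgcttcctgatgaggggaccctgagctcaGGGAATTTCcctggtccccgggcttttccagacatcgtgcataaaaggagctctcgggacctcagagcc
Ptgs2 (chr1:150099781-150100030, plus strand): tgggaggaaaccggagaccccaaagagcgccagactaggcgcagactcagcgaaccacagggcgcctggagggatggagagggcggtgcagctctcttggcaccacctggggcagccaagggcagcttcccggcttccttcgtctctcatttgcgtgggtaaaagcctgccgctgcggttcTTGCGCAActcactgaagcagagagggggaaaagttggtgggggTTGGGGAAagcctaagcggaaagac
Cxcr2 (chr1:74153744-74153988, plus strand): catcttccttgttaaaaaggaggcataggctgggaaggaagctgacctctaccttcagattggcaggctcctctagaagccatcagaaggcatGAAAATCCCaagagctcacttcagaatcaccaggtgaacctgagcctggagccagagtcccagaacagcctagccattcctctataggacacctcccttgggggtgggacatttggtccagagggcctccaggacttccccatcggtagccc
Ltf (chr9:111019042-111019270, plus strand): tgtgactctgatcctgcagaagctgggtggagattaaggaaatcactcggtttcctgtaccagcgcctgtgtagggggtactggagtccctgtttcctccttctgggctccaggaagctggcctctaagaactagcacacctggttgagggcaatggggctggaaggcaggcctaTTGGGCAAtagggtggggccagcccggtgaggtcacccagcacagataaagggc
Cxcl2 held the NF-κB letters 97 bases before its start, and Cxcr2 held them on the other strand 157 bases before its start, letters found in 0.941% of 32851 mouse promoters of 250 bases. Il1b held the C/EBP letters 91 bases and the TATA box 31 bases before its start, and Ptgs2 the C/EBP letters 69 and 25 bases before. Ltf held C/EBP letters 75 bases before its start, and Cxcl2 also 236 bases before. C/EBP letters were in 11.7% of the promoters and the TATA box in 7.59%, no pair of motifs overlapped in these sequences, and a match describes the letters and does not show a binding site.

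Among the 7018 genes with at least 50 UMIs over both sides, 596 (8.49%) were at least 2-fold higher and 660 (9.4%) at least 2-fold lower in mature than in intermediate neutrophils, with a median log2 ratio of -0.06 over all of them, or -0.21 when the 50 most abundant genes were left out of the totals. Depth matching left 5592 genes, of which 188 (3.36%) were higher and 185 (3.31%) lower, 168 and 165 of them among the genes called without matching. Against all other neutrophils, the early ones included, 1157 of 9526 genes (12.1%) were higher and 3019 (31.7%) lower, and at matched depth 168 of 5797 (2.90%) and 454 (7.83%). The counts thus changed with depth matching. Matching also changed which cells were compared: Camp was at 31697 CPM in the intermediate neutrophils drawn, against 41350 in all of them. Depth and maturity cannot be told apart in this change. Gene lists are described below by how many members passed the 2-fold limit against intermediate neutrophils, first over all barcodes and then at matched depth. The 25 lists hold 455 different genes, of which 8 were not in the matrix, 4 are genes of the choice and left out of these counts, and 71 were under the limit of 50 UMIs, leaving 372. Genes past that limit are called tested below, in the sense of compared by ratio.

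Granule genes divided by class. Transcripts of the specific granules, which carry antimicrobial proteins, were lower in the members: of 15 genes tested 8 were at least 2-fold lower and 0 higher (median log2 ratio -1.03), and 6 of 15 were lower at matched depth (median -0.76). Ltf was at 3959 CPM in the members, 13443 in intermediate and 7047 in early neutrophils, and the cathelicidin gene Camp at 10012, 41350.1 and 63932. Chil3, which encodes the chitinase-like protein Ym1, was 0.166 (0.160 to 0.173) times its intermediate level, Ngp, neutrophilic granule protein, 0.310 (0.306 to 0.313) times, and Lcn2, the iron-siderophore binder lipocalin 2, 0.489 (0.481 to 0.497) times. At matched depth Camp was at 11692 against 31697 CPM and Ltf at 4625 against 11324, while Lcn2 had a log2 ratio of -0.64, short of the 2-fold limit. Orm1, an acute-phase protein gene of the same list, was at 21.2 against 174 CPM.

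What remained of specific granule RNA was concentrated in a part of the members. Ltf, Camp, Ngp, Lcn2 and Chil3 together made up a median of 0.596% of a member's UMIs, with quartiles at 0.214% and 2.62%, against 11.2% in intermediate and 13.8% in early neutrophils. They were under 1% in 520 members, or 60.6% (57.2% to 63.9%), against 172 of 1187 intermediate neutrophils (14.5%), and at or above 10% in 45 members. The 86 members richest in Camp held 71.4% of its 29223 UMIs. At least 1 UMI was nevertheless found in 601 members for Camp and in 669 for Ngp, while Ltf was at 0 in 454 members. As a measure of free RNA, the same genes made up a median of 0.0412% of the UMIs of B-lineage barcodes, so that the typical member lay above that level, and thinned barcodes held an Ltf UMI in 36.1% of the members, 82.6% of intermediate neutrophils and 7.27% of the B lineage.

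Of the azurophil granule genes, which encode the proteins of the first granules, Mpo, Elane and Prtn3 were high in early neutrophils alone among the 3 groups. Mpo, myeloperoxidase, was at 955, Elane, neutrophil elastase, at 1866 and Prtn3, proteinase 3, at 2131 CPM in early neutrophils, against 20.9, 8.56 and 12.7 in the members and 70.7, 18 and 32.4 in intermediate ones. The members' and the intermediate levels lay under the B-lineage levels of 187, 166 and 207 CPM, which therefore give no measure of free RNA for these genes. At matched depth Mpo was at 19.4 against 72.7 and Prtn3 at 11.1 against 29.6 CPM, while Elane had too few UMIs to be tested. The list count of 5 lower and 2 higher among 9 tested (median -1.05), or 3 and 1 among 6 at matched depth, includes these genes, and the direction for Mpo and Elane against intermediate neutrophils turned under other limits of the choice. The list as a whole summed to 9082 CPM in the members against 10875 in intermediate neutrophils, so the pattern of these 3 genes was not that of the list.

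Gelatinase granule genes, the last class to be made, were not lower in the members by the 2-fold limit. Of 8 tested, 2 were at least 2-fold higher and 0 lower (median 0.60), and 1 of 8 at matched depth (median 0.28). Retnlg, a resistin-like secreted protein gene, was at 32360.2 CPM (32154 to 32567) in the members, 13099 in intermediate and 872 in early neutrophils, with a median of 104 UMIs per member against 52 and 2. At matched depth it was at 31618 against 19063 CPM, under 2-fold (log2 0.73). Slc11a1, which encodes the phagosomal metal transporter NRAMP1, was 3.59 (3.01 to 4.30) times its intermediate level and at matched depth had a log2 ratio of 1.03. Mmp9, gelatinase B, was at 2151 against 1552 CPM and Mmp8, neutrophil collagenase, at 2764 against 1928, both within 2-fold but 130.1 and 71.9 CPM in early neutrophils. Secretory vesicle and surface genes gave 2 higher and 0 lower of 13 (median 0.70; at matched depth 1 and 0, median 0.41). Cd101, a surface protein gene known from mature mouse neutrophils, was the clearer of them at 37.7 against 7.30 CPM, with a log2 ratio of 1.08 at matched depth.

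**Figure D2:**
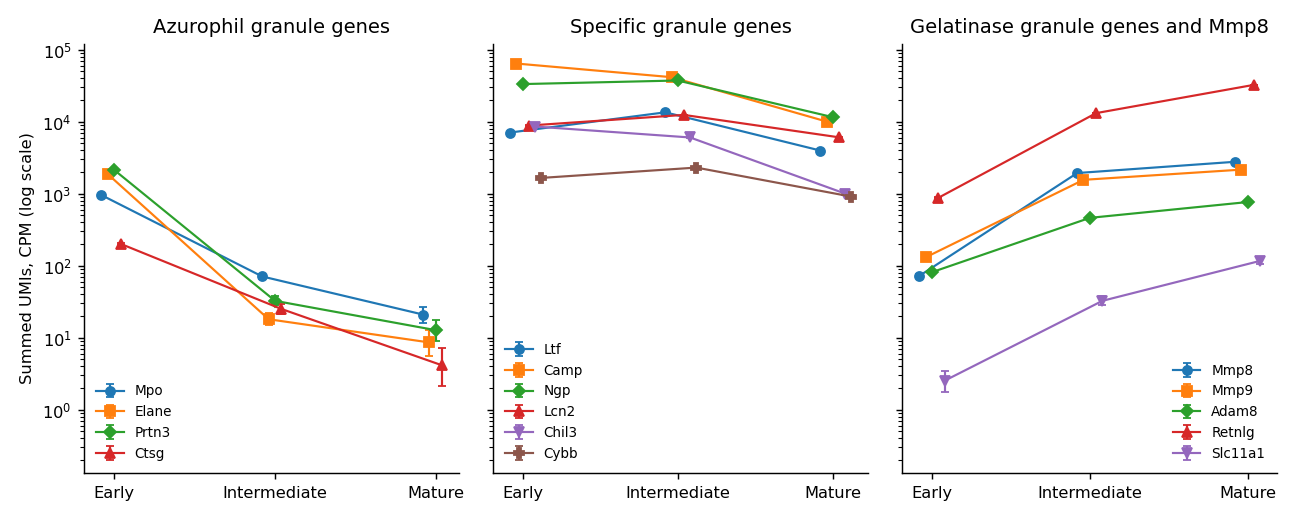
Summed level in CPM (log scale) of azurophil, specific and gelatinase granule genes in early, intermediate and mature neutrophils, with exact 95% counting intervals; Mmp8 is drawn with the gelatinase genes. Mpo, Elane, Prtn3 and Ctsg are high in early neutrophils alone, the specific granule genes are lowest in the mature group, and Retnlg goes from 872 over 13099 to 32360.2.

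Cytokine and chemokine genes were among the highest lists relative to intermediate neutrophils. Of 15 tested, Il1b not counted, 10 were at least 2-fold higher and 0 lower (median 1.51), and at matched depth 8 and 0 (median 1.21). Cxcl2, whose product is a ligand of CXCR2, was at 476 CPM (451 to 502) against 46.4, a ratio of 10.3 (9.03 to 11.7), and at 399.9 against 90.7 at matched depth. It was nevertheless found in a minority: 281 members had a Cxcl2 UMI, thinned shares were 21.4% against 4.47% and, in B-lineage barcodes, 0.550%, and the 86 richest members held 71.3% of its UMIs. The CC chemokine gene Ccl6, in contrast, had a UMI in 713 members, in 63.9% of them after thinning against 20.1% of intermediate neutrophils and 2.18% of the B lineage, and was at 1386 against 234 CPM, or 1154 against 499.6 at matched depth. The CC chemokine gene Ccl4 was at 80.9 against 16.7 CPM, Ccl3, a ligand of CCR1, at 25.01 against 3.40, and Csf1, the macrophage growth factor gene, at 56.2 against 11.7. At matched depth Ccl4 had a log2 ratio of 1.54, Csf1 was at 51.95 against 21.8 CPM and Ccl3 at 24.7 against 2.87. Ccl5 was at 35.3 against 2.43 CPM, with 32.3 in B-lineage barcodes, and the source of its RNA was not tested. Il1rn, which encodes the antagonist that blocks the IL-1 receptor, was at 200.4 against 87.1 CPM, a ratio of 2.30 (2.04 to 2.59) that was under 2-fold at matched depth (log2 0.56). Tnf gave 9.59 against 11.02 CPM, with an interval of the ratio from 0.539 to 1.37, and Il1a had 4 UMIs in all members.

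Members rich in Il1b, a gene of the choice, also had higher levels of Cxcl2 and Ptgs2, which is a description only. In the 86 richest in Il1b, 58.1% (47.0% to 68.7%) held a Cxcl2 UMI against 29.9% (26.7% to 33.3%) of the other 772, at 2020 and 337 CPM, although their median depth was 2318 against 2762.5 UMIs. For Ptgs2 the shares were 45.3% and 17.2%, and for Nlrp3 47.7% and 28.5%. B-lineage barcodes, at a median of 3107 UMIs, held a UMI of Cxcl2 in 1.45%, of Ptgs2 in 0.982% and of Nlrp3 in 1.93%. The share with a Cxcr2 UMI was 82.6% and 83.8%. An Ltf UMI was in 24.4% (15.8% to 34.9%) of the Il1b-rich members and 49.6% (46.0% to 53.2%) of the others.

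Genes of the inflammasome and of IL-1β processing gave a mixed picture. Of 13 tested 5 were higher and 0 lower (median 0.43), and 1 of 12 at matched depth (median 0.29). Nlrp3, the sensor, was at 132 CPM (119 to 145) against 19.9, a ratio of 6.60 (5.37 to 8.15), and at 111 against 39.8 at matched depth. Casp1, the enzyme that cuts pro-IL-1β, was at 13.7 against 10.2 CPM, a ratio of 1.34 (0.879 to 2.03), the adaptor gene Pycard at 32.2 against 39.2, and the pore-forming gasdermin gene Gsdmd at 57.9 against 37.6. Casp1 and Pycard were no higher than near the B-lineage levels of 11.9 and 104 CPM. Nlrp12, a related sensor that is known from neutrophils, was at 53.4 against 13.3 CPM, under 2-fold at matched depth (log2 0.92).

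The lipid mediator list held genes far apart in both directions. Of 11 tested 2 were higher and 3 lower (median -0.31), and 2 and 2 of 10 at matched depth. Ptgs2, the inducible cyclooxygenase that starts prostaglandin synthesis, was at 121 CPM against 16.2 in intermediate and 1.61 in early neutrophils, and at 96.5 against 28.3 at matched depth. Pla2g7, which encodes the enzyme that breaks down platelet-activating factor, was 6.03 (5.05 to 7.24) times its intermediate level, with a log2 ratio of 1.16 at matched depth. Lta4h, the enzyme that makes leukotriene B4, was at 74.3 CPM in the members, 406 in intermediate and 568 in early neutrophils, and Ltb4r1, the receptor for leukotriene B4, at 156 against 384. The level of Lta4h in the members was near the 53.5 CPM of the B lineage. At matched depth the log2 ratio was -1.96 for Lta4h and -0.94 for Ltb4r1.

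**Figure D3:**
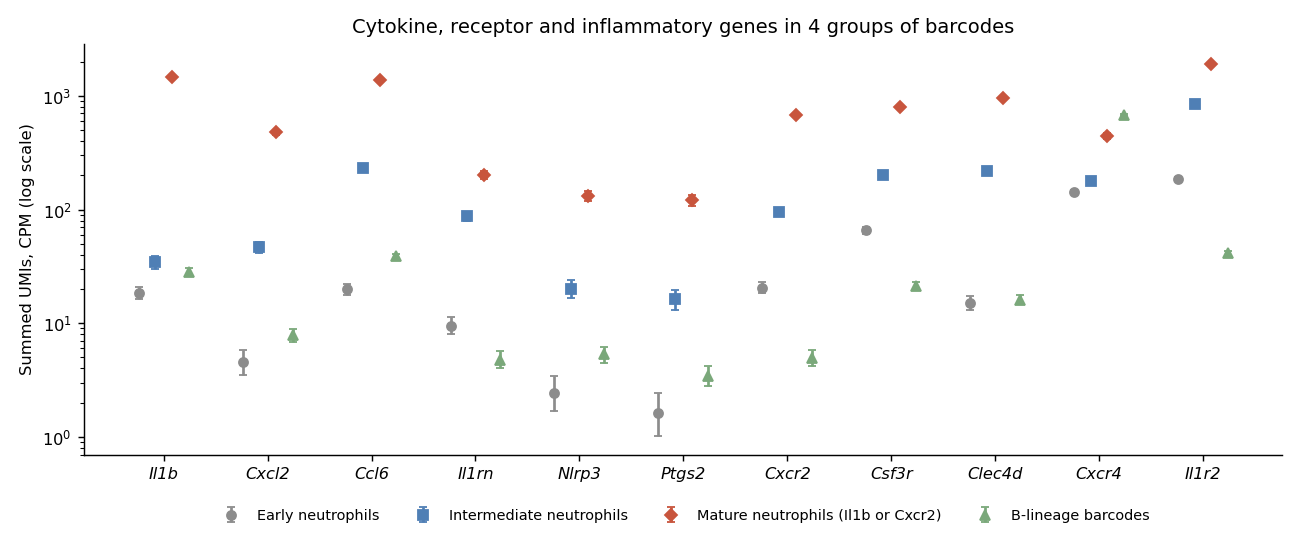
Summed level in CPM (log scale) with exact 95% counting intervals in early, intermediate and mature neutrophils and in B-lineage barcodes; Il1b and Cxcr2 chose the mature group. Cxcl2, Ccl6, Il1rn, Nlrp3, Ptgs2, Csf3r, Clec4d and Il1r2 are highest in the mature group of the 4, and Cxcr4 is highest in the B lineage at 678.

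Chemoattractant receptor genes were mostly higher in the members, with 8 higher and 1 lower of 12 tested (median 1.45), Cxcr2 not counted, and 3 and 0 of 12 at matched depth (median 0.71). Ccr1, a receptor for CCL3 and CCL5 among others, was at 521 against 194 CPM, Ptafr, the receptor for platelet-activating factor, at 171 against 61.8, and Hcar2, the niacin and hydroxybutyrate receptor, at 201 against 48.6. At matched depth Ccr1, at 476 against 288 CPM, and Ptafr, at 139 against 94.01, were under 2-fold (log2 0.73 and 0.56), while Hcar2 was past it (1.10). Ccrl2, a receptor that binds chemerin without signalling, was 5.57 (4.49 to 6.96) times its intermediate level and at 84.9 against 32.02 CPM at matched depth. The formyl peptide receptor genes did not share a direction, Fpr1 being at 102 against 59.8 CPM and Fpr2 at 293 against 457, both within 2-fold. The complement receptor gene C5ar1 was at 356 against 223, and Cxcr1 had 17 UMIs in the members.

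The marrow retention receptor gene Cxcr4, often read as a sign of neutrophil ageing, was higher in the members. It was at 443 CPM (419 to 467) in the members, 178 in intermediate and 143 in early neutrophils, and in 37.9%, 17.8% and 12.7% of thinned barcodes. At matched depth it did not reach 2-fold, with 397 against 247 CPM. Cxcr4 was also high in B-lineage barcodes, at 678 CPM, where it is a known gene of precursors. Over the adhesion and traffic list 3 of 16 were higher and 2 lower (median 0.43), and 0 and 1 of 14 at matched depth. Selplg, the selectin ligand PSGL-1, was at 400.1 against 125 CPM, under 2-fold at matched depth (log2 0.83). The list for chromatin release and ageing, which also holds Cxcr4 and Dusp1, gave 5 higher and 0 lower of 10 (median 0.98; 1 and 0 at matched depth, median 0.54), with the arginase gene Arg2 at 274 against 77.8 and Padi4, the enzyme that citrullinates histones, at 182 against 107. At matched depth Arg2 was at 239 against 135 CPM, under 2-fold (log2 0.82).

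Cytokine receptor genes gave 12 higher and 0 lower of 19 tested (median 1.14), and 6 and 0 of 19 at matched depth (median 0.60). Il1r2, the decoy receptor that binds IL-1 without signalling, was at 1906 CPM against 855 in intermediate and 185 in early neutrophils, although at matched depth its log2 ratio was 0.52. Il13ra1 and Il4ra, the chains that form the type II IL-4 receptor, were at 36.3 against 3.89 and 41.5 against 10.4 CPM, and at matched depth Il13ra1 was at 30.1 against 5.75 and Il4ra at 36.3 against 15.2. For Il4ra the B-lineage level was 39.6 CPM. Tnfrsf1b, TNF receptor 2, was at 127 against 35.99, and at matched depth at 106 against 60.8 CPM, under 2-fold (log2 0.80).

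Of the pattern recognition genes 8 of 19 were higher and 0 lower (median 0.62), Clec4d among them, and 2 and 0 of 16 at matched depth. The Toll-like receptor genes Tlr2, for bacterial lipoproteins, and Tlr13, for bacterial ribosomal RNA, were at 191 against 75.4 and 56.9 against 17.2 CPM, and Trem1, an amplifying receptor, at 559 against 262. At matched depth Tlr2 and Trem1 were under 2-fold (log2 0.78 and 0.64) and Tlr13 was past it (1.16). For the oxidase that makes superoxide, 0 of 8 were higher and 1 lower (median -0.03; the same counts at matched depth). The 1 lower gene was Cybb, the catalytic subunit, at 908 against 2296 CPM, close to the limit at matched depth (log2 -1.01).

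Genes of NF-κB feedback and of the immediate-early response were higher in part, and the second list also serves as the sign of stress from dissociation. For NF-κB and feedback 8 of 20 were higher and 1 lower (median 0.61), and 3 and 0 of 18 at matched depth. Nfkbia, the inhibitor that NF-κB induces, was at 250.1 against 81.9 CPM and Tnfaip3, the ubiquitin-editing inhibitor A20, at 46.9 against 14.4, with B-lineage levels of 318 and 83.3. Tnfaip2, with a B-lineage level of 14.9 CPM, was at 263 against 76.04. At matched depth Nfkbia and Tnfaip3 were past 2-fold (log2 1.29 and 1.27) and Tnfaip2 was under it (0.78). The immediate-early and dissociation stress list had 10 of 22 higher and 0 lower (median 0.88), and 2 and 0 of 21 at matched depth (median 0.53). Dusp1, a MAP kinase phosphatase, was at 701 against 124 CPM and at 609 against 229 at matched depth, Junb at 1025 against 329, and Atf3 at 65.4 against 13.8. Junb and Atf3 were under 2-fold at matched depth (log2 0.91 and 0.98). Fos, also induced by dissociation, was at 663 against 498 CPM, within 2-fold. The part of the tissue digestion in these genes, and in Il1b, Cxcl2 and Ptgs2 beside them, was not tested.

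Interferon-stimulated genes gave 14 higher and 0 lower of 25 tested (median 1.10), and 7 and 0 of 21 at matched depth (median 0.76). Isg15, a ubiquitin-like modifier, was at 50.02 against 14.1 CPM, Oasl2 at 84.96 against 17.7, Rtp4 at 67.1 against 15.6 and Ifit1, which binds foreign RNA, at 15.8 against 2.11. Ifitm1, a membrane protein that restricts virus entry, was at 187 against 57.6. At matched depth the log2 ratio was 1.36 for Isg15, 1.18 for Oasl2 and 1.45 for Ifitm1, Rtp4 was under 2-fold (0.77), and Ifit1 had too few UMIs to be tested. Ifitm6 of the same gene family was lower but within 2-fold, at 1763 against 3357 CPM.

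Stefin and cystatin genes, inhibitors of cysteine proteases, had 5 higher and 0 lower of 8 (median 1.73), and 4 and 0 of 7 at matched depth (median 1.22). Gm5483 was at 303 against 48.5 CPM, Stfa2l1 at 291 against 50.3, and Stfa1 at 126 against 35.3, with log2 ratios of 1.48, 1.22 and 1.53 at matched depth. Their transcripts share sequence, 16.8% of the 50-base words of Stfa2l1 and 22.5% of those of Stfa1 also occurring in another stefin gene, so that their split is uncertain, whereas Gm5483 shared none. The stefin genes were detected in a minority of the members, 312 of which (36.4%) held a UMI of any of 8 stefin genes. Of the 179 with Stfa2l1, 31.8% also held Gm5483, and of the 133 with Gm5483, 42.9% also held Stfa2l1. S100a6, a calcium-binding protein gene and 1 of 2 higher among 12 S100 and annexin genes, was at 7436 CPM against 2728 in intermediate and 269 in early neutrophils, while Anxa1, annexin A1, was 1 of the 2 lower at 1226 against 2581 (list median 0.42). At matched depth 2 of 11 genes of that list were higher and 0 lower (median 0.40). S100a6, at 6945 against 4147 CPM (log2 0.74), and Anxa1, at 1314 against 2232 (log2 -0.76), were then both under the 2-fold limit.

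Of transcription factor genes known from late neutrophils 8 of 21 were higher and 0 lower (median 0.78), and 1 and 0 of 20 at matched depth (median 0.57). Cebpb, the C/EBP factor of late and emergency granulopoiesis, was at 3128 CPM (3064 to 3193), 1163 in intermediate and 533 in early neutrophils. At matched depth its log2 ratio was 0.85. Early factors gave 0 higher and 2 lower of 9 (median -0.31; 0 and 0 of 6 at matched depth). Cell cycle genes had 0 higher and 19 lower of 32 (median -1.10), and 0 and 6 of 29 at matched depth (median -0.72), with Stmn1, a microtubule regulator of dividing cells, at 22.95 CPM against 124 and 604 in early neutrophils, and the proliferation marker gene Mki67 at 94.9, 179 and 561. Both are higher in B-lineage barcodes, at 971 and 647 CPM, which include dividing precursors. Genes of the secretory machinery had 0 higher and 4 lower of 21 (median -0.67; 0 and 1 of 20 at matched depth), such as the endoplasmic reticulum chaperone Hsp90b1 at 75.7 against 190.2. At matched depth the log2 ratio was -2.12 for Stmn1, -0.45 for Mki67, under 2-fold, and -1.01 for Hsp90b1.

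In the remaining lists the medians lay between -0.03 and 0.58. Survival and death genes gave 4 higher and 1 lower of 19 (median 0.02; 0 and 0 of 14 at matched depth), with Mcl1, on whose protein neutrophil survival depends, at 1186 against 542 CPM, the kinase gene Pim1 at 404 against 97.4 and the death receptor gene Fas at 58.9 against 18.2. At matched depth all 3 were under 2-fold (log2 0.63, 0.98 and 0.80). Glycolysis and glucose transport genes gave 3 and 2 of 26 (median -0.03; 1 and 0 at matched depth), the 1 at matched depth being the transporter gene Slc2a6, at 81.5 against 15.4 CPM. Iron and metal genes gave 4 and 2 of 11 (median 0.58; 2 and 1 of 10 at matched depth). Among these Fth1, ferritin heavy chain, was at 6249 against 2495 CPM and Hmox1, haem oxygenase 1, at 50.02 against 15.1, while Ltf and Lcn2, counted above with the granules, were the 2 lower. At matched depth Fth1 was under 2-fold (log2 0.71) and Hmox1 past it (1.37).

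**Figure D4:**
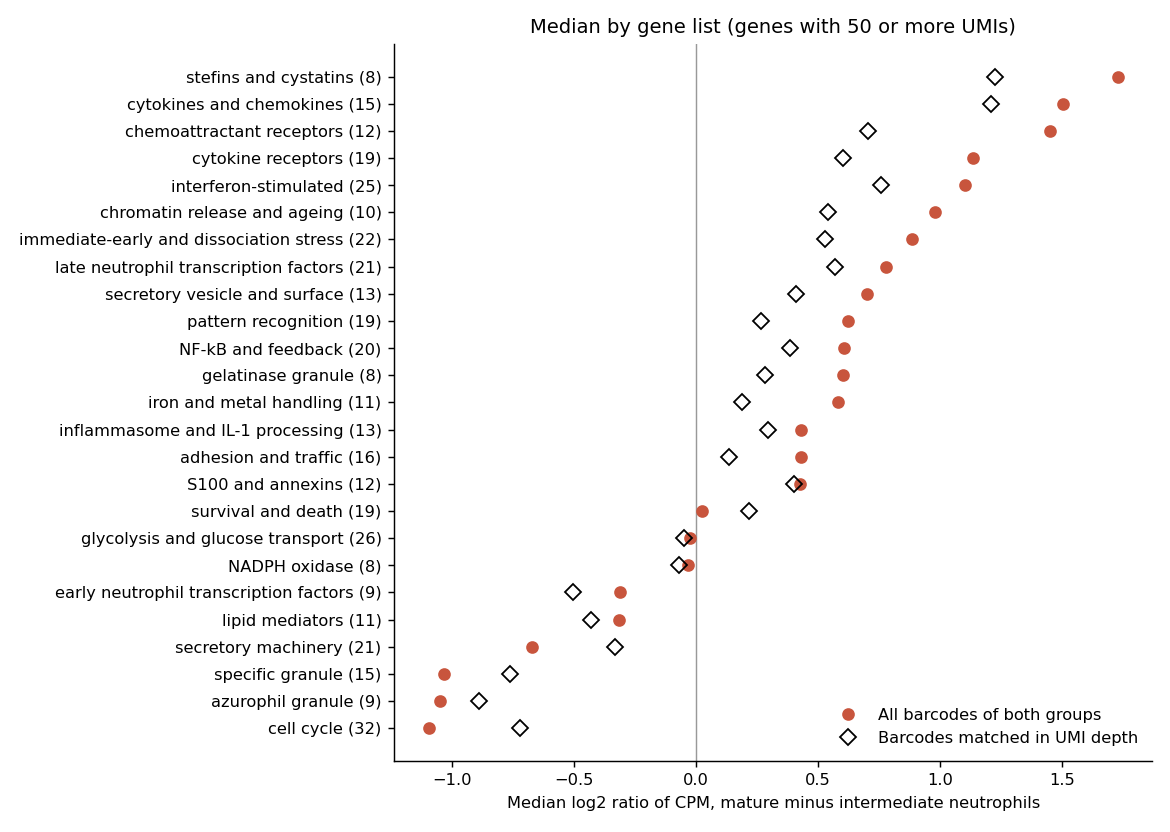
Median log2 ratio of CPM, mature minus intermediate neutrophils, for each of 25 gene lists, with the number of genes tested in brackets, over all barcodes (filled circles) and at matched depth (open diamonds, with as many or fewer genes tested). Stefins and cystatins (1.73 and 1.22) and cytokines and chemokines (1.51 and 1.21) lie highest, and cell cycle (-1.10 and -0.72), azurophil and specific granule genes lowest.

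Ranked by ratio among genes with at least 100 CPM on the higher side, the 10 highest against intermediate neutrophils were Cxcl2, Jaml, Fgl2, Wfdc17, Ptgs2, Nlrp3, Gm5483, H2-Q10, Pla2g7 and Ccl6. Jaml, an adhesion protein gene of leukocytes, was at 234 against 30.5 CPM, and Fgl2, fibrinogen-like protein 2, at 112 against 14.6. Wfdc17, a secreted protein gene of the whey acidic protein family, was at 144 against 19.3. H2-Q10, a class I histocompatibility gene whose near relatives may share its reads, was at 228 against 36.6. At matched depth their log2 ratios were 1.49, 1.74, 1.67 and 1.30. The 10 lowest were Orm1, Inhba, Chil3, Lta4h, Stmn1, Zmpste24, Camp, Ero1l, Olfml2b and Gm26917. Inhba, the activin A subunit gene, was at 15.8 against 116 CPM, and Zmpste24, the protease that matures lamin A, at 61.3 against 312, with log2 ratios of -2.14 and -1.63 at matched depth. Ero1l, which reoxidises protein disulfide isomerase, was at 49.3 against 192, or 55.7 against 145 at matched depth.

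By the same ranking against all other neutrophils the 10 highest genes were Cxcl2, Ptgs2, Jaml, H2-Q10, Nlrp3, Pla2g7, Ccl6, Stfa2l1, Dusp1 and Acod1. Cxcl2 was 20.02 (18.1 to 22.2) times, Ptgs2 18.5 (15.2 to 22.6) times, Nlrp3 15.5 (13.02 to 18.6) times, Ccl6 14.3 (13.5 to 15.04) times and Stfa2l1 13.6 (12.1 to 15.2) times as high in the members, and Acod1, which makes itaconate, 12.01 (10.9 to 13.3) times. On 641 members and 641 of these neutrophils matched in depth the ratios were smaller: Cxcl2 was at 421 against 107 CPM (log2 1.97), and the log2 ratio was 1.74 for Ptgs2, 1.52 for Nlrp3, 1.17 for Ccl6, 1.22 for Stfa2l1 and 1.21 for Acod1. The 10 lowest were Elane, Prtn3, Ms4a3, Ctsg, Mpo, Pclaf, Stmn1, Nkg7, Dut and Hist1h2ap, Mpo being at 635 CPM in the others.

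Against all 8808 other barcodes, 1387 of 12116 genes (11.4%) were at least 2-fold higher and 6899 (56.9%) at least 2-fold lower in the members. Retnlg was 238 (233 to 244) times as high, Ly6g, which encodes the surface antigen used to sort mouse neutrophils, 195 (165 to 231) times, at 520.4 against 2.67 CPM, Mmp8 147 (138 to 157) times and Lcn2 117 (112 to 121) times. This comparison pools B-lineage, erythroid, monocyte and other barcodes in the proportions of this library, and its ratios hold for that mixture.

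Markers of other cell types were compared between the members and intermediate neutrophils over whole lists. Of the monocyte or macrophage list 6 of 12 were higher and 0 lower (median 1.09), summed at 232 against 113 CPM, with Csf1r at 26.04 against 7.78 and Ccr2 at 21.6 against 6.81, and 19 members and 20 intermediate neutrophils held at least 2 UMIs of 5 monocyte genes. In B-lineage barcodes Csf1r was at 11.2 and Ccr2 at 22.9 CPM. Dendritic genes gave 3 and 0 of 5, summed at 307 against 148 CPM. For erythroid genes the counts were 2 and 0 of 9, summed at 51771 against 37318 CPM. The median barcode held 7 haemoglobin UMIs in both groups, at unlike depth. As a share of a barcode's UMIs the median was 0.251% in the members and 0.161% in intermediate neutrophils. Over 50 haemoglobin UMIs were held by 41 members and 67 intermediate neutrophils. B-lineage genes gave 0 higher and 1 lower of 7, summed at 261 against 251 CPM. Lower in the members were all 5 basophil or mast cell genes tested (7.88 against 170 CPM), 2 of 3 progenitor genes (20.6 against 62.1), both platelet genes (8.91 against 50.4) and the 1 eosinophil gene tested (23.6 against 37.3). T or NK genes gave 0 higher and 1 lower of 2 (53.4 against 32.9 CPM over the whole list), skeletal or stromal genes 0 and 1 of 5 (215 against 315), and endothelial genes 0 and 0 of 1 (7.19 against 8.27), 4 of them being at 0 in the members. Without the barcodes over 50 haemoglobin UMIs, 589 genes were higher and 673 lower than in intermediate neutrophils, and without those with at least 2 monocyte UMIs 573 and 701, beside the 596 and 660 of the full comparison; both settings were added after the data were seen. Beyond these values the part of such RNA in the genes above was not tested.

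The members were also divided by which of the genes they held. Since the choice of the 3 classes depends on Il1b, Cxcr2 and depth, all values are descriptions and were taken after thinning to 1000 UMIs. Members with Cxcr2 only had a median of 4181 UMIs, those with Il1b only 2092.5 and those with both 2603, and the 5 specific granule genes made up a median of 3.50%, 0.435% and 0.468% of their UMIs. Of 738 genes tested 113 (15.3%) were at least 2-fold higher and 21 (2.85%) at least 2-fold lower in Il1b-only than in Cxcr2-only members. For the granule genes named next, members with both genes lay nearer to those with Il1b only than to those with Cxcr2 only, which lay between them and intermediate neutrophils.

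Specific granule genes made up 8 of the 21 lower genes, out of 11 tested. Ltf was at 6866 CPM in Cxcr2-only, 1420.0 in double and 1807 in Il1b-only members, against 12266 in intermediate neutrophils, and Camp at 16027, 3810.2, 5164 and 34833. Cybb was at 1228, 559, 579 and 2090.1 CPM. In 62 of the 149 Cxcr2-only members (41.6%, 33.6% to 49.96%) the 5 genes were at or above 5% of the UMIs, against 13 of the 140 Il1b-only members (9.29%, 5.04% to 15.4%). Summed Hbb-bs also set the classes apart, at 21114 CPM in Cxcr2-only against 7671 in Il1b-only members. Over 50 haemoglobin UMIs were held by 17 and 4 members of these classes. The median haemoglobin share per barcode, before thinning, went the other way, at 0.217% in Cxcr2-only and 0.330% in Il1b-only members. The part of haemoglobin RNA in the other differences was not tested.

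For the cytokine and receptor genes named here the Il1b-only members were the higher ones. Cxcl2 was at 1036 CPM in Il1b-only and 726 in double members but at 128 in Cxcr2-only members, close to the 110.4 of intermediate neutrophils, and the ratio of Il1b-only to Cxcr2-only was 8.12 (5.02 to 13.9). Clec4d was at 1750.0, 1349.7, 523 and 415 CPM in the same order, and Csf3r at 1407, 1302, 564 and 382. Ccl6 had a ratio of 2.89 (2.33 to 3.61), Pim1 of 3.90 (2.38 to 6.66), Cxcr4 of 2.61 (1.79 to 3.87) and Cebpb of 2.47 (2.15 to 2.84). Gadd45b, a stress-response gene chosen after its values were seen, had 56 thinned UMIs in Il1b-only and 3 in Cxcr2-only members. By list, 4 of 7 chemoattractant receptor genes, 3 of 4 cytokine receptor genes and 4 of 11 immediate-early genes were higher in Il1b-only members, and 0 of these lists' genes were lower.

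**Figure D5:**
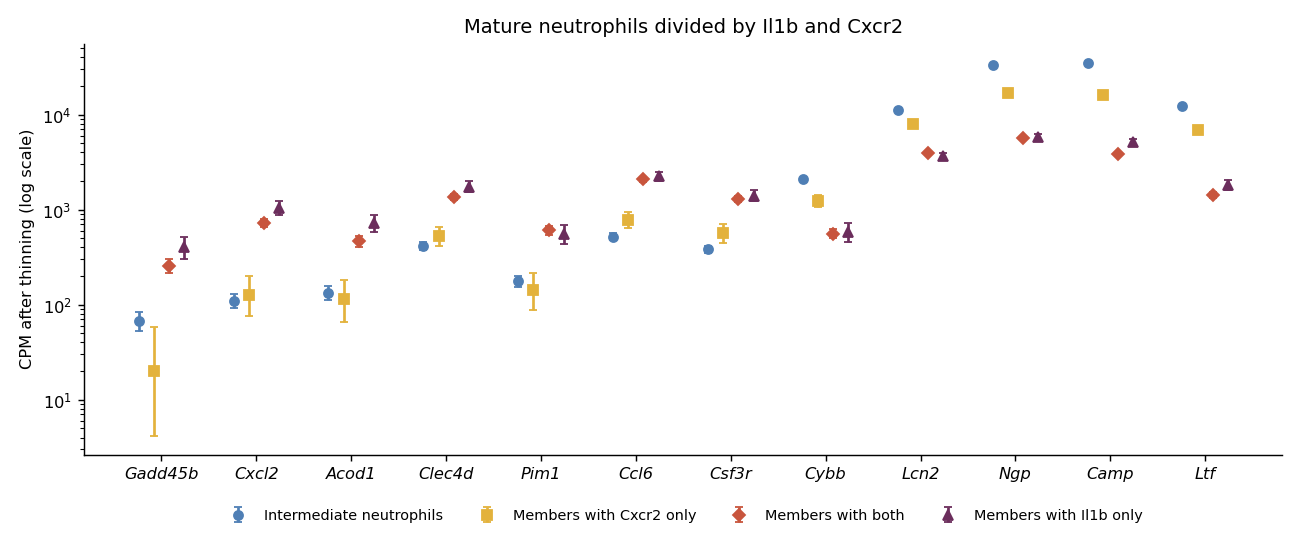
CPM after thinning to 1000 UMIs per barcode (log scale) with exact 95% counting intervals, in intermediate neutrophils and in members with Cxcr2 only, with both genes and with Il1b only. For Cxcl2 the Cxcr2-only members lie at 128, beside intermediate neutrophils and under the other members, and for Ltf at 6866, between intermediate neutrophils and the other members.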

How the data were processed

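Single-cell RNA of 4 records from mouse tibia was deposited by the authors as 1 matrix of unnormalized UMI counts, with 31053 features and 15014 barcodes (median 3812 UMIs, 500 to 80413). The submitters' processing notes name Cell Ranger 3.1.0, Seurat 3 and mm10, with no role or order given. The other parameters of that processing are not given in the sources used here. The deposited counts were summed per group and scaled to CPM with Python 3.11.15, numpy 2.4.6, scipy 1.17.1 and pandas 2.3.3, and drawn with matplotlib 3.10.9. A gene was called at a 2-fold ratio, with 0.5 UMIs added per side, among genes with at least 50 UMIs over both sides. The genes of the choice and mitochondrial genes were left out. Ratios have exact conditional binomial, CPM values exact Poisson and shares exact Clopper-Pearson 95% intervals, all for counting error only. PCR copies are removed by the UMI, but cells of 1 library are not replicates, so no test was made. Barcodes were thinned to 1000 UMIs with a fixed seed, and depth matching drew equal numbers of barcodes per bin of 0.25 log2 UMIs. Doublets were marked with Scrublet in scanpy 1.11.5 and kept. The call was also run on simulated group totals with counting error only. These held no spread between cells and no depth differences between barcodes, so they cannot show how the call behaves with either. B-lineage barcodes held at least 4 Cd79a plus Cd79b UMIs and under 5% S100a8 plus S100a9.

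Members and gene lists were chosen with earlier results of these data known. The genes named are those of 25 lists and 11 marker lists, and, for each comparison, the 10 highest and 10 lowest by ratio among genes with at least 100 CPM on the higher side. Genes within lists were tested where they had enough UMIs. Alternatives were 13 planned and 2 added after the data were seen.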

Additional observations from a re-analysis of the deposited data

Results flagged for a closer look

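The matrix also counts sequences added to the reference, which no comparison above uses. The sequence labelled WPRE, the name of a viral element used to raise expression of transgenes, had 268 UMIs in 205 of the 858 members (23.9%, 21.1% to 26.9%), above the 3 UMIs that a count of 0 allows. The share with a WPRE UMI was 19.6% in intermediate neutrophils, 26.6% in early neutrophils, 19.6% in all other barcodes and 18.8% in the B lineage. Its level was 91.8 CPM (81.1 to 103) in the members, 48.2 (42.8 to 53.9) in intermediate neutrophils, 24.4 in early neutrophils, 55.2 in all other barcodes and 43.3 in the B lineage. Depth differed between these groups, WPRE was not compared at matched depth, and the part of depth in these levels was not tested. The sequence labelled TDT had 3 UMIs and that labelled EGFP 2 in the members, and those labelled CRE, IRES and LACZ had 0, which allows up to 1.03 CPM. No control samples without a transgene were analysed here, so the source of the WPRE counts was not tested.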

How the results depend on the processing

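Of the counts of genes and of members, 82 of 96 values under the alternatives stayed near the values reported and 14 moved. With at least 5 Il1b plus Cxcr2 UMIs there were 538 members, against 1082 with at least 2 and 958 with at least 1 after thinning. With at most 1 Fcnb plus Cebpe UMI 250 genes were lower than in intermediate neutrophils, and with at most 5% mitochondrial UMIs 4211 were lower than in all other barcodes. In equal depth bins, with fewer cells and genes, 168 were higher and 454 lower than in other neutrophils, 188 and 185 than in intermediate ones, and 3849 lower than in all other barcodes. Without the filter on low counts, which adds genes of few UMIs, 4034 genes were higher than in other neutrophils, 2560 higher and 2083 lower than in intermediate ones, and 5183 higher than in all other barcodes. Without thinning, 238 genes were higher and 37 lower in Il1b-only than in Cxcr2-only members. The causes of these changes were not tested.

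Direction was checked only for genes past 2-fold in the comparison reported, so a change of sign within 2-fold was not counted. Of 2485 gene ratios under the alternatives, 2320 kept their side of the 2-fold limit, 124 fell under it, 38 passed it and 3 turned. Those 3 were against intermediate neutrophils: Elane had a log2 ratio of 0.19 with at most 5% mitochondrial UMIs and 0.29 with at least 10% S100a8 plus S100a9, and Mpo 0.0903 with the latter. Both genes were at low levels in the members and in intermediate neutrophils in the comparison reported. Of 650 list counts 97 moved. The medians of 2693 UMIs and 992 genes per member limit what a single barcode can show, and an undetected gene is not shown to be absent. No paired analysis was possible because the 4 records share 1 group and no barcode can be tied to a record, and for the same reason no record could be left out.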
